A study of Mus musculus with 2 samples.

Results

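The genes described here encode potassium channel subunits. They are the autosomal genes with regions in the longer lists of methylated regions whose symbol is Kcn followed by further letters and a number, leaving out Kcnq1 and Kcnq1ot1. There were 72 such genes of 14073 autosomal genes in the lists, and all 72 matched the RefSeq gene table. The lists named 68 of them in Pemt-/- and all 72 in Pemt+/+. Another 18 protein-coding mouse genes that the same rule would take, of 90 on the autosomes of the RefSeq table, were not paired with a region and are not analysed here.

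Methylated DNA of liver was compared between 1 Pemt-/- sample and 1 Pemt+/+ sample. The sample labels give no number of mice per sample, and the Methods of the study name several mice per genotype. Each sample is called a mouse below. Both mice were fed high fat-high sucrose (HFHS) chow, according to the sample records from 5 to 25 weeks of age, while the Methods of the study place the sampling for this assay after fewer weeks of feeding. Pemt encodes phosphatidylethanolamine N-methyltransferase, the liver enzyme that makes phosphatidylcholine by methylation. DNA was captured with a methylated-DNA enrichment kit and sequenced. Bisulphite conversion is mentioned in the sample records and not in the Methods. With 1 library per genotype there is no replicate check, no test was run, and each comparison is between these 2 libraries and not between the genotypes. The longer lists held 97063 regions in Pemt-/- and 131279 in Pemt+/+, and the number of reads sequenced per library is not given in the sources used here, so the depth is unknown. Pemt itself had 2 regions in Pemt-/- and 4 in Pemt+/+. These say nothing on whether the gene is intact, and regions of methylated DNA do not check the labelled tissue. A region with few reads (tags) in whole liver could come from all cells or from a share of them, which cannot be told apart.

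Potassium channels let potassium ions cross membranes down their gradient and so set the resting potential, end action potentials and drive the secretion of salt and water. Voltage-gated channels open on depolarisation, calcium-activated channels on a rise of calcium, inward rectifiers pass current best near the resting potential, and tandem-pore channels carry background current. Auxiliary subunits change their gating and traffic. In the liver, potassium channels of hepatocytes and bile duct cells take part in volume regulation and bile secretion, whereas many of the 72 genes are known mainly from neurons, muscle or germ cells. Methylation of CpG sites inside transcribed genes is common, and promoters dense in CpG are usually free of it.

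The capture sees methylated CpG, so what a window can show depends on its CpG number. The RefSeq promoter windows of 4 members are shown for that reason, each 300 bases from 250 before to 50 after the start, 5′ to 3′, with every CpG (the letters CG, the same on both strands and never overlapping) in capitals. Kcnd3 had a region overlapping the 5′ end of one of its transcripts, Kcnh1 and Kcnk18 had regions within about 1 kb upstream, and Kcnh7 held the Pemt-/- region with the highest score among member regions not listed in Pemt+/+. Positions of the windows are those of GRCm38.p6, and positions of regions in all other paragraphs are those of mm9. The builds were not converted, so a window need not be the start that a region lies at, in Kcnd3 in particular, which has 2 transcripts in the lists.
Kcnd3, chr3:105451640-105451939, + strand: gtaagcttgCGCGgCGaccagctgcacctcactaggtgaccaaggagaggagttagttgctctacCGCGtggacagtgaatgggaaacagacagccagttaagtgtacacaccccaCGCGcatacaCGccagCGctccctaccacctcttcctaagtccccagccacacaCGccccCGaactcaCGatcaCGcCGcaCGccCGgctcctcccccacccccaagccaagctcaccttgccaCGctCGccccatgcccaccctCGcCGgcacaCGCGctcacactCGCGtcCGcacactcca
Kcnh1, chr1:192190527-192190826, + strand: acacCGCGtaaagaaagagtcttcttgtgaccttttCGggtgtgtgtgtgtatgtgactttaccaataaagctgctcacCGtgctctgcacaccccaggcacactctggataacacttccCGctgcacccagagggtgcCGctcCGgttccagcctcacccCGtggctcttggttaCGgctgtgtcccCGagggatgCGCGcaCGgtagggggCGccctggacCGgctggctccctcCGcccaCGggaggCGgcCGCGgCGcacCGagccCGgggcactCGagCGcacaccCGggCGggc
Kcnh7, chr2:63184238-63184537, - strand: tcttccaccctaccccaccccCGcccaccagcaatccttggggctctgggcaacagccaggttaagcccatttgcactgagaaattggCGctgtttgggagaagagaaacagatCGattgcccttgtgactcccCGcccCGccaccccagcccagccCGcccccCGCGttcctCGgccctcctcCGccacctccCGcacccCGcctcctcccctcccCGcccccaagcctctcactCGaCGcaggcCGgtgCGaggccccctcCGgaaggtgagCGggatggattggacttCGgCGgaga
Kcnk18, chr19:59219398-59219697, + strand: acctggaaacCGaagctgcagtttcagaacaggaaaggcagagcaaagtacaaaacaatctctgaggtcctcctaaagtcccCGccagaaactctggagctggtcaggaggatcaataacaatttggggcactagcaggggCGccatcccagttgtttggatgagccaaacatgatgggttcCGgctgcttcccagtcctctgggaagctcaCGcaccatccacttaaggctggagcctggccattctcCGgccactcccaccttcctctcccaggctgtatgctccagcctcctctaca
The Kcnd3 window held 25 CpG and had a GC content of 64.0%. The Kcnh1 window held 27 CpG, the Kcnh7 window 21 and the Kcnk18 window 6. Of 31396 autosomal promoter windows, 94.8% held at least 1 CpG and the median number was 7. Fewer CpG than in Kcnd3 were found in 81.1% of them, fewer than in Kcnk18 in 43.2%. Over the 73 windows of the 53 members in the promoter table the median was 9 CpG, with a range of 0 to 49. A CpG-rich window, with an observed to expected CpG ratio of at least 0.6 and at least 50% GC, was found in 21 of the 73 windows (28.8%, 95% Wilson interval 19.7 to 40.0), beside 34.1% of all windows. The interval treats windows as independent, although some belong to the same gene and overlap.

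The potassium channel genes were paired with 310 regions in Pemt-/- and 432 in Pemt+/+. That was 0.324% of the 95650 autosomal Pemt-/- regions and 0.335% of the 129116 autosomal Pemt+/+ regions. In Pemt-/- they summed to 4907 tags over 144 kb, in Pemt+/+ to 9412 tags over 202 kb, and such sums move with how much was called. All autosomal regions summed to 1554629 tags in Pemt-/- and 2796810 in Pemt+/+. The median number of tags in a member region was 12 in Pemt-/- and 17 in Pemt+/+, against 13 and 17 over all autosomal regions. Member regions of Pemt-/- had 8 to 85 tags and those of Pemt+/+ 9 to 168. Fewer regions in Pemt-/- than in Pemt+/+ were listed for 49 members, equal numbers for 17 and more for 6 (68.1%, 23.6% and 8.33%), beside 62.2%, 26.5% and 11.3% of all autosomal genes. Those 6 were Kcna4, Kcnh8, Kcnj5, Kcnma1, Kcns3 and Kcnt1, named after their values were seen. Tags summed over a gene were lower in Pemt-/- for 70 of the 72 (97.2%, 90.4 to 99.2), beside 91.0% of all genes. The other 2 were Kcna4, with 24 tags in Pemt-/- and 20 in Pemt+/+, and Kcnt1, with 25 and 22. Members had a median of 3 regions in each mouse, beside 2 in Pemt-/- and 3 in Pemt+/+ over all genes. The genes set beside them were not matched for this or for tags, which bears on these shares.

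A region was taken as listed in 1 mouse only when it overlapped no region of the longer list of the other mouse by at least 1 bp. In Pemt-/-, 52 of the 310 member regions were of this kind (16.8%, interval 13.0 to 21.3), and the share over all autosomal Pemt-/- regions was 16.7%. In Pemt+/+, 173 of 432 were of this kind (40.0%, 35.5 to 44.7), and the share over all autosomal Pemt+/+ regions was 38.3%. Member regions were thus listed in 1 mouse only about as often as other regions. The shares follow the length of the lists. With both lists limited to the same number of highest-scoring autosomal regions, the member shares were 26.5% in Pemt-/- and 31.0% in Pemt+/+, beside 27.7% and 28.0% for all regions. Regions listed in 1 mouse only were weak, with a median of 9 tags in Pemt-/- against 13 for shared member regions, and of 13 tags in Pemt+/+ against 21. A Pemt-/- only region was present in 27 members (37.5%) and a Pemt+/+ only region in 56 (77.8%), beside 41.0% and 74.3% of all 14073 autosomal genes. Both kinds occurred in 24 members (33.3%) and neither in 13 (18.1%), beside 33.1% and 17.7% of all genes. The shares of 16.7% and 38.3% over all autosomal regions are also the background of the shares given for each family below.

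Kcnh7 encodes erg3, a voltage-gated channel of the ether-a-go-go related group known from the brain. It is a long gene on chromosome 2 that spans 491 kb, with 8 Pemt-/- and 10 Pemt+/+ regions. The region at chr2:62613340-62613620, inside transcript NM_133207.2, held 24 tags in Pemt-/- at a fold enrichment of 24.48 over the background of the peak caller, and no Pemt+/+ region overlapped it. Its score, 10 times the −log10 p-value of the peak caller, was 232.91, which ranked 3 among the 15929 autosomal Pemt-/- only regions. Of the 1422 autosomal Pemt-/- regions with exactly 24 tags, 1.83% overlapped no Pemt+/+ region. Kcnh7 was picked for this strong region. Its rank and rarity, here and in the shorter list, therefore describe the pick and are no independent support. The nearest Pemt+/+ region, at chr2:62615320-62615868, began 1699 bp away and held 50 tags. Its own Pemt-/- counterpart, chr2:62615183-62615844, held 27 tags. In Pemt-/-, therefore, 2 neighbouring regions carried similar tag numbers where Pemt+/+ had a single region.

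The paired regions of Kcnh7 held 14 and 13 tags, 9 and 22, 13 and 20, 27 and 50, 10 and 22, and 9 and 10 tags in Pemt-/- and Pemt+/+ respectively. The first of these 6 pairs, which lies downstream of the gene, held more tags in Pemt-/-, as did 10.4% of all autosomal pairs. Another Pemt-/- only region of 15 tags lay 5951 bp downstream, 801 bp from a Pemt+/+ only region of 11 tags. The other Pemt+/+ only regions held 19, 10 and 11 tags. Summed over the gene, Pemt-/- gave 121 tags against 188 (39.2%, 33.9 to 44.7), a share above that of 66.3% of autosomal genes. This sum includes the strong region for which Kcnh7 was picked, so the share and its rank are no independent support. In the paired regions alone it gave 82 tags against 137 (37.4%, 31.3 to 44.0), and 27.7% of genes had a lower share.

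**Figure D1:**
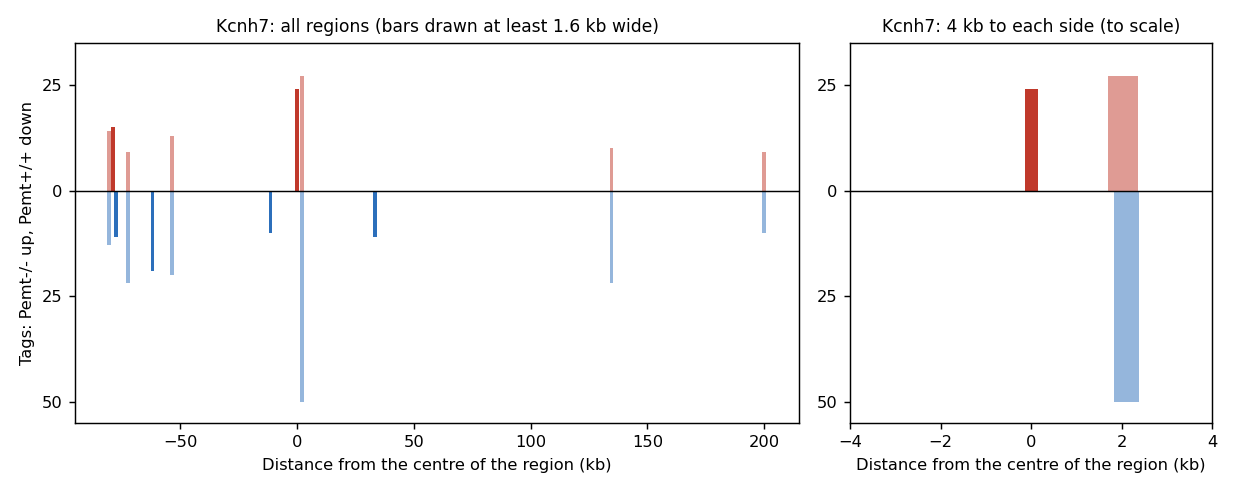
Tags (y axis) of each Kcnh7 region in Pemt-/- (bars upward) and Pemt+/+ (bars downward) by distance in kb from the centre of the 24-tag Pemt-/- region (x axis), for all regions at left and for 4 kb to each side at right. Dark bars are regions listed in 1 mouse only and pale bars are regions that overlap between the mice. The 24-tag bar stands beside a pair of 27 and 50 tags.

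Among the other Kcnh genes, Kcnh1 (eag1) had 16 Pemt-/- and 18 Pemt+/+ regions, with 204 and 353 tags, and was among the 5 members with the most regions. Its Pemt-/- only region at chr1:194223568-194223924 held 12 tags at a score of 100.45. Upstream of Kcnh1 a region in both mice held 9 and 19 tags, 741 bp from the gene in Pemt-/- and 804 bp in Pemt+/+. Kcnh8 (elk) had 6 Pemt-/- regions, 2 of them listed in Pemt-/- only, and 4 Pemt+/+ regions. Kcnh2, the erg channel of the heart, contained the pair with the highest ratio of Pemt-/- to Pemt+/+ tags of all members, 17 against 10 tags. Kcnh6 contained one of the lowest, with 10 and 36 tags. Kcnh3 gave 10 tags in 1 Pemt-/- region and 84 in 5 Pemt+/+ regions, a Pemt-/- share of 10.6% (5.88 to 18.5) that was undercut by 0.170% of genes. It was singled out after its values were seen, and 4 of the 5 Pemt+/+ regions were listed in Pemt+/+ only. In the single pair Kcnh3 held 10 and 19 tags, a share of 34.5% (19.9 to 52.7), and 13.1% of genes had a lower one. Over the 6 Kcnh genes, 8 of 36 Pemt-/- regions (22.2%, 11.7 to 38.1) and 17 of 45 Pemt+/+ regions (37.8%, 25.1 to 52.4) were listed in 1 mouse only.

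The classical voltage-gated families differed mainly in how many regions they had. Kcna, the Shaker-type channels, had 6 short genes with 5 Pemt-/- and 7 Pemt+/+ regions. Kcna1 and Kcna7 were listed in Pemt+/+ only, with 14 tags in 1 region and 35 tags in 2 regions. The Kcna7 region at chr7:52664378-52664889 held 25 of these and also lies near Ntf5. Kcnb2, a delayed rectifier, had 5 regions in Pemt-/- with 84 tags and 7 in Pemt+/+ with 139. Kcnc, the fast channels of rapidly firing neurons, had 14 and 23 regions in 4 genes. In Kcnc2 a pair at chr10:111892496-111893333 held 64 and 81 tags, while the region at chr10:111901763-111902852 had 50 tags in Pemt+/+ and was not listed in Pemt-/-. That was the most tags of any member region listed in 1 mouse only. Of all autosomal Pemt+/+ regions with 50 tags, 2.22% had no Pemt-/- counterpart. As the region was picked as a strong one listed in Pemt+/+ only, this rarity describes the pick.

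Kcnd2 and Kcnd3, the pores of the A-type current, had 18 Pemt-/- regions and 34 Pemt+/+ regions. Of the former, 3 were listed in Pemt-/- only (16.7%, 5.84 to 39.2), and of the latter, 18 in Pemt+/+ only (52.9%, 36.7 to 68.5), an interval that includes the 38.3% of all autosomal regions. Kcnd3 had the member region with the most tags at a 5′ end. The region at chr3:105261688-105262713 held 60 tags in Pemt-/- and overlapped the start of transcript NM_019931.1. Its Pemt+/+ counterpart, chr3:105261759-105262765, held 65 tags and began just inside the same transcript, so the lists class it as inside. The Pemt-/- share of 48.0% (39.4 to 56.7) in this pair was above that of the pair at chr3:105371534-105371912 in the same gene, which held 8 and 33 tags. The ratio of 0.923 in the first pair exceeded that of 82.2% of all autosomal pairs, and the ratio of 0.242 in the second lay far below the median of 0.682.

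Kcnq3 takes part in the M-current of neurons and had 7 Pemt-/- regions and 9 Pemt+/+ regions. A pair in Kcnq3 held 19 and 16 tags. Its ratio, 1.19, was among the 5 highest of the member pairs with at least 30 tags. The silent subunits Kcng1, Kcng3, Kcng4, Kcns1, Kcns2, Kcns3 and Kcnv2, which form no channel alone but change Kcnb channels, had 18 and 26 regions. In Kcng3, 178 tags in Pemt-/- and 309 in Pemt+/+ made it the member of this group with the most tags.

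The Kcnma, Kcnn, Kcnt and Kcnu genes held more regions than any other group of pore subunits. All but Kcnu1 are calcium- or sodium-activated channels. In Pemt+/+ the lead over the 66 Kcnj regions rests on Kcnu1. The regions of the group numbered 63 in Pemt-/- and 69 in Pemt+/+, over 7 genes. Of these, 12 were listed in Pemt-/- only (19.0%, 11.2 to 30.4) and 19 in Pemt+/+ only (27.5%, 18.4 to 39.0). Kcnma1, the large-conductance BK channel, had 20 and 19 regions, the only one of the 5 members with most regions that had more in Pemt-/-. It had 7 regions listed in 1 mouse only in each mouse. The strongest of these by score held 9 tags in Pemt-/-, at chr14:24228920-24229168, and 21 tags in Pemt+/+, at chr14:24273829-24274201. Of all Pemt-/- regions with 9 tags, 35.8% had no Pemt+/+ counterpart. The small-conductance channel Kcnn3 had 14 and 15 regions with 164 and 262 tags. Kcnn1 had 3 pairs with 44 and 48 tags, among them one downstream of the gene with 18 in Pemt-/- and 15 in Pemt+/+. Kcnt1, a sodium-activated channel, had 3 Pemt-/- regions of 8 or 9 tags and 2 Pemt+/+ regions of 11 tags, none of which overlapped. Kcnu1, the channel of sperm, had 10 and 13 regions. Over its 5′ end lay a region of 20 tags in Pemt-/-, with 38 in Pemt+/+, that also lies near Ash2l.

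The 13 inward rectifier genes (Kcnj) had 46 Pemt-/- regions and 66 Pemt+/+ regions. Of these, 5 (10.9%, 4.73 to 23.0) and 24 (36.4%, 25.8 to 48.4) were listed in 1 mouse only. Kcnj6, a G-protein-gated channel, had the most regions of all members, 16 and 28, with 312 and 658 tags. One region was listed in Pemt-/- only, 15 tags 9005 bp upstream of the gene, and 13 were listed in Pemt+/+ only, the strongest with 21 tags at chr16:94983966-94984386. Kcnj5, a related channel of the heart, contained a pair of 10 and 41 tags. Kcnj9, a neighbour of Kcnj10 on chromosome 1, had 1 Pemt-/- region of 10 tags and 5 Pemt+/+ regions with 58 tags, and 2 of the Pemt+/+ regions counted for both genes. Its single pair held 10 tags in each mouse. In Kcnj10, the channel of glia, the single pair held 14 and 10 tags, whereas all its regions together held 27 and 55. Kcnj13 was listed in Pemt+/+ only, with 15 tags.

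The 11 tandem-pore channel genes (Kcnk) had 25 Pemt-/- regions and 44 Pemt+/+ regions. Of the latter, 25 were listed in Pemt+/+ only, or 56.8% (42.2 to 70.3), the one family whose interval lay wholly above the 38.3% of all autosomal regions. With 11 families set side by side and no replicate this is a description of these lists. Kcnk10 (TREK-2) accounted for 9 of the 25. Its region at chr12:99691031-99691582 held 36 tags at a fold enrichment of 39.22 and had the highest score of all member regions listed in Pemt+/+ only, 276.96. Kcnk10 also had 1 Pemt-/- only region, with 14 tags. Kcnk18 (TRESK), whose promoter window is printed above, had a Pemt+/+ only region of 26 tags 1157 bp upstream and 8 tags in all in Pemt-/-. Kcnk9 had 12 Pemt-/- tags against 73 Pemt+/+ tags, and 12 against 26 in its single pair. A Pemt+/+ only region of 37 tags over its 3′ end lay 156 bp from the nearest Pemt-/- region. Kcnk1 (TWIK-1) contained the most covered pair of all members, at chr8:128538436-128539508, with 85 tags in Pemt-/- and 168 in Pemt+/+. Its ratio of 0.506 was undercut by 18.8% of all pairs. Kcnk4 was listed in Pemt+/+ only, with 14 tags.

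Auxiliary subunits of the families Kcnab, Kcne, Kcnip and Kcnmb gave 60 and 86 regions in 11 genes, of which 10 (16.7%, 9.31 to 28.0) and 36 (41.9%, 32.0 to 52.4) were listed in 1 mouse only. Kcnmb4, a subunit of the BK channel, had 234 tags in 10 Pemt-/- regions and 525 in 16 Pemt+/+ regions. Its most covered pair lies downstream of the gene and held 37 and 89 tags, a ratio of 0.416. Kcne1, the small partner of slow cardiac channels, contained the pair with the lowest ratio of all members. That pair, at chr16:92361515-92361815 in Pemt-/-, lies upstream of the gene and held 8 and 35 tags. The ratio of 0.229 was undercut by 0.0868% of all pairs. As the pair was picked for its low ratio, this rank describes the pick. Kcnip2, a calcium-binding partner of Kcnd channels, had an upstream pair of 18 and 15 tags and a pair inside of 11 and 37, so both directions occurred in 1 gene. Kcnip4 had a region upstream in both mice, 576 bp away with 11 tags in Pemt-/- and 505 bp away with 14 in Pemt+/+.

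**Figure D2:**
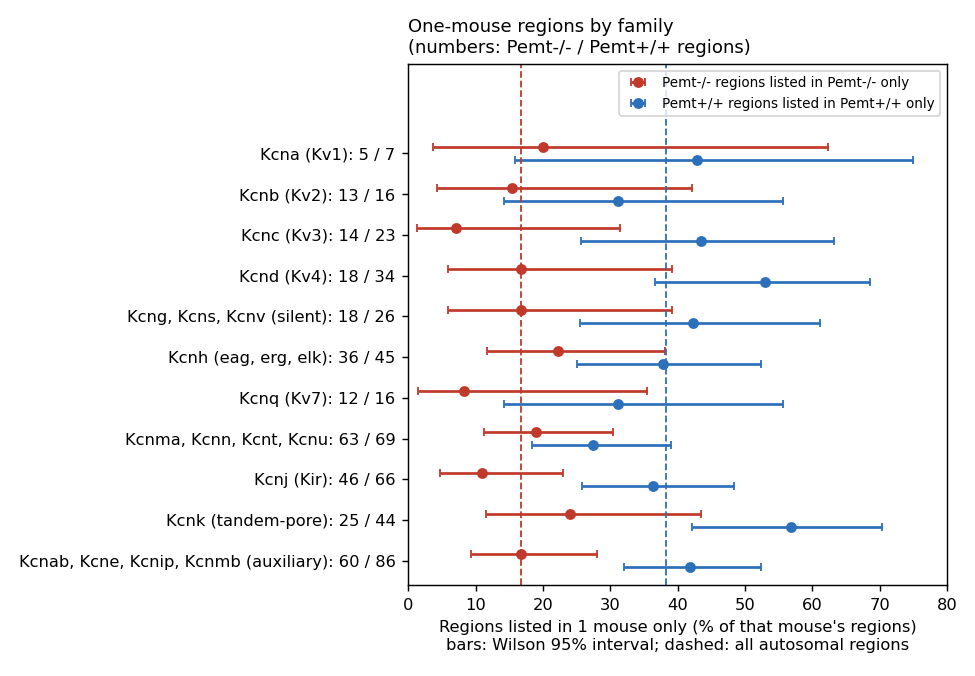
Share of regions listed in 1 mouse only (x axis, % of the regions of that mouse) for the 11 families (y axis, with the number of regions in Pemt-/- and Pemt+/+), with Wilson 95% intervals as bars. Dashed lines mark the shares over all autosomal regions, 16.7% for Pemt-/- and 38.3% for Pemt+/+. Every family except Kcnk crosses the Pemt+/+ line with its interval, and all cross the Pemt-/- line.

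The 254 pairs of member regions that overlapped one to one gave a median ratio of Pemt-/- to Pemt+/+ tags of 0.650 (95% interval of the median 0.625 to 0.692), beside 0.682 over the 78303 autosomal pairs. Above that overall median lay 115 of the 254. More tags in Pemt-/- than in Pemt+/+ were found in 17 pairs (6.69%), against 10.4% of all pairs. A ratio at least 2 times the overall median occurred in 3 member pairs (1.18%, 0.402 to 3.41), beside 2.13% of all pairs. These were the pairs of Kcnh2 and Kcnj10 described above and one in Kcnc2 with 15 and 9 tags. A ratio at or under the overall median divided by 2 occurred in 7 (2.76%, 1.34 to 5.58), beside 1.93% of all pairs. They were in Kcne1, Kcnd3, Kcnc1, Kcnj5, Kcnh6, Kcnip2 and Kcnh1. In Kcnc1 the pair held 9 and 37 tags, and in Kcnh1 it held 9 and 27. All 3 high pairs had 27 tags or fewer in total, whereas 7 of 7 low pairs had 36 or more. In the paired regions the members had 4290 tags from Pemt-/- and 6728 from Pemt+/+, a Pemt-/- share of 38.9% (38.0 to 39.9), beside 39.9% over all autosomal pairs.

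**Figure D3:**
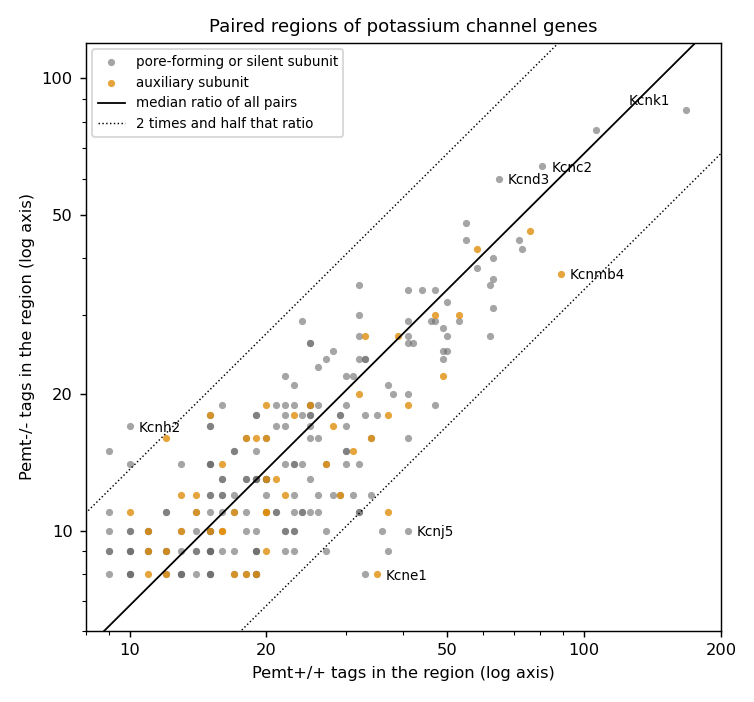
Tags of the 254 paired member regions in Pemt+/+ (x axis, log scale) and Pemt-/- (y axis, log scale), with pore-forming and silent subunits in grey and auxiliary subunits in orange. The solid line is the median ratio of all autosomal pairs, 0.682, and the dotted lines are 2 times that ratio and the ratio divided by 2. Of the points, 3 lie on or above the upper dotted line and 7 on or below the lower one.

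Gene by gene, the tag share of Pemt-/- in paired regions ranged from 29.6% in Kcns2 (8 tags against 19) to 58.3% in Kcnj10 (14 against 10). The median over 65 members with pairs and at least 20 tags was 39.1%, beside 40.3% over 11705 autosomal genes, and 25 of the 65 lay above the latter. The interval of 3 members lay wholly below 40.3%. They were Kcne1 with 35 tags against 79 (30.7%, 23.0 to 39.7), Kcnk1 with 114 against 223 (33.8%, 29.0 to 39.0) and Kcnmb4 with 234 against 407 (36.5%, 32.9 to 40.3). No member lay wholly above it. Over all genes 3.87% lay wholly below and 3.60% wholly above. In Kcnk1 the pair of 85 and 168 tags supplied most of the tags, and the other pairs held 11 and 26 and 18 and 29, all lower in ratio than the overall median. These intervals cover counting error only.

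**Figure D4:**
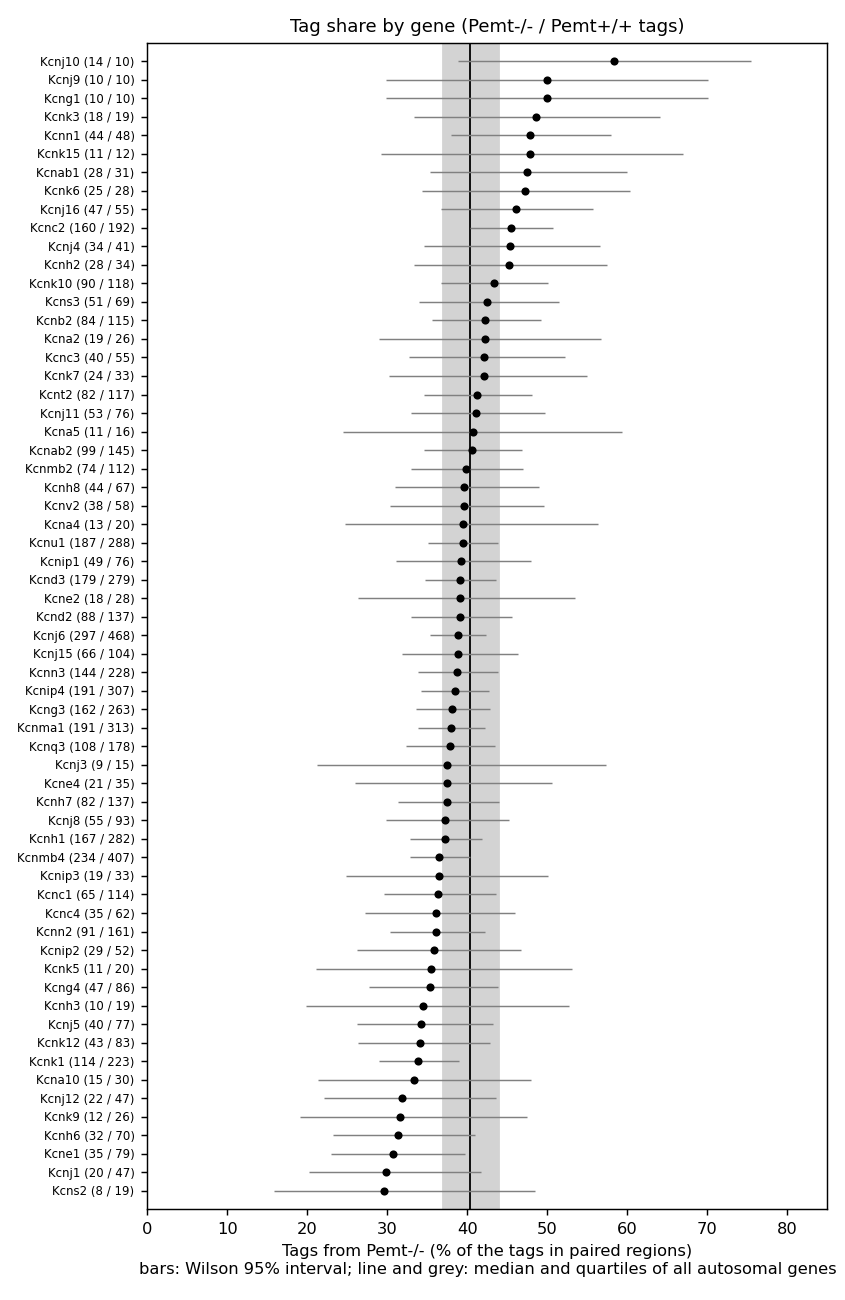
Share of tags from Pemt-/- in paired regions (x axis, %) for 62 of the 65 member genes (y axis, with Pemt-/- and Pemt+/+ tags), with Wilson 95% intervals. The vertical line is the median of 11705 autosomal genes, 40.3%, and the grey band spans their quartiles, 37.0% to 44.0%. The intervals of Kcne1, Kcnk1 and Kcnmb4 end to the left of the line.

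Most member regions lay within genes. In Pemt-/- 241 regions (77.7%) and in Pemt+/+ 333 (77.1%) were inside a member transcript, against 80.1% and 79.9% of all autosomal regions that had a transcript within 10 kb. Downstream regions made up 12.3% (9.06 to 16.4) and 12.0% (9.30 to 15.4), beside 8.23% and 8.31% of all such regions. The shares in this paragraph are not strictly alike. Relations of member regions were read from member transcripts only, those of all regions from any transcript. Of the member regions, 37 in Pemt-/- and 60 in Pemt+/+ also belonged to another gene. This unlike reading can raise the downstream share of members and lower their inside share. Upstream regions made up 8.71% and 9.72%, beside 9.92% and 10.1%. Of the 72 members, 3 had a region overlapping a 5′ end in either mouse, and all of these regions were shared between the mice. They made up 0.968% of the Pemt-/- and 0.463% of the Pemt+/+ member regions, beside 0.475% and 0.507% of all such regions. Besides Kcnd3 and Kcnu1 this was Kcnb2, with 29 tags in Pemt-/- at chr1:15302507-15303201 and 47 in its Pemt+/+ counterpart. No promoter window for Kcnb2 or Kcnu1 is shown here.

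Long members had more regions but fewer for their length. Genes entered only with a region within 10 kb, so a higher density of short genes is partly fixed in advance. The 5 members with the most regions, Kcnj6, Kcnma1, Kcnh1, Kcnn3 and Kcnd3, held 24.2% of the Pemt-/- and 22.7% of the Pemt+/+ member regions. Across the 72 genes, gene length and number of regions rose together (Spearman rho 0.750 in Pemt-/- and 0.691 in Pemt+/+, given as a description across genes that share 1 library per mouse). Inside or overlapping the genes there were 2.74 regions per 100 kb in Pemt-/- and 3.78 in Pemt+/+, beside 4.88 and 6.64 over 12155 autosomal genes. The median member is 39.4 kb long and the median gene 22.2 kb. Among genes of at least 100 kb the 19 members had 2.03 and 2.77 regions per 100 kb, beside 4.17 and 5.60 over 1671 genes. Below the median density of such genes lay 16 of the 19 in Pemt-/- and 15 of the 19 in Pemt+/+. The lowest was Kcnj3, with 1 region in each mouse over 186 kb. Kcnn3 and Kcnj6 had the highest, 8.53 per 100 kb in Pemt-/- and 9.89 in Pemt+/+. Lengths are those of GRCm38 and can exceed the transcripts of the lists, in Kcnip4 by a wide margin, which lowers the density of such genes.

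**Figure D5:**
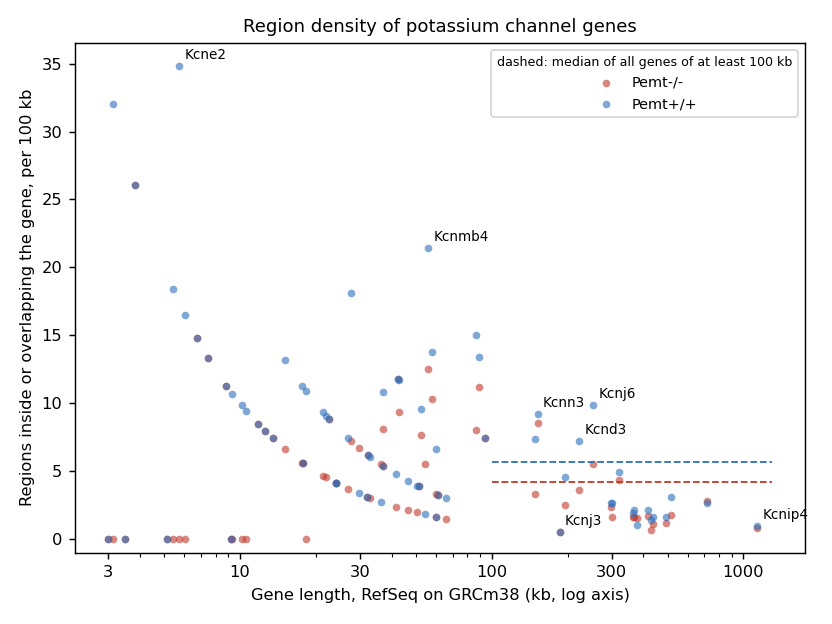
Regions inside or overlapping each of the 72 genes per 100 kb (y axis) against gene length in kb (x axis, log scale), in Pemt-/- (red) and Pemt+/+ (blue). Dashed lines are the medians over all autosomal genes of at least 100 kb, 4.22 and 5.66. Most long members lie below them, while Kcnn3, Kcnj6, Kcnd3 and Kcnk10 in Pemt+/+ lie above.

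Other membrane protein families were set beside the potassium channel genes. Pore genes of calcium and sodium channels (17 genes) had 161 and 255 regions. Of these, 11.2% (7.19 to 17.0) were listed in Pemt-/- only and 44.3% (38.3 to 50.5) in Pemt+/+ only. Glutamate and GABA receptor genes (39 genes) had 243 and 339 regions, with 21.4% (16.7 to 27.0) and 43.4% (38.2 to 48.7). Both intervals overlapped those of the potassium channel genes, and the median ratios of paired tags were 0.667 and 0.691. Over all autosomal regions the shares were 16.7% and 38.3%, and over all autosomal pairs the median ratio was 0.682. In density the potassium channel genes, at 2.74 and 3.78 regions per 100 kb, lay between the receptors, at 2.02 and 2.79, and the calcium and sodium channels, at 5.07 and 8.26. These densities were not matched for length. Median gene lengths were 39.4 kb for potassium channels, 183 kb for receptors and 111 kb for calcium and sodium channels. Potassium channel genes of at least 100 kb had 2.03 and 2.77 regions per 100 kb, close to the receptors. No test of these differences can be made with 1 library per genotype.

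The potassium channel genes best known from hepatocytes and bile ducts form a list of 8, of which 5 were in the region lists. Kcnn4, Kcna3 and Kcne3 were not analysed here. Kcnn2, the small-conductance channel that bile duct cells use in secretion, had 91 tags in 7 Pemt-/- regions and 183 in 9 Pemt+/+ regions, and 7 pairs with a Pemt-/- share of 36.1% (30.4 to 42.2). Kcnj8 and Kcnj11, the pores of ATP-sensitive channels, had 3 regions each in both mice and none in 1 mouse only. Their tags were 55 and 93 for Kcnj8 and 53 and 76 for Kcnj11. Kcnk5 had 11 and 33 tags. Together with Kcnma1 these genes had 34 and 36 regions, 7 of them in Pemt-/- only (20.6%, 10.3 to 36.8), all in Kcnma1, and 10 in Pemt+/+ only (27.8%, 15.8 to 44.0), beside 16.7% and 38.3% of all autosomal regions. Their 25 pairs had a median ratio of 0.609, beside 0.682 over all autosomal pairs, and none was 2-fold from the overall median in either direction.

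Genes that handle potassium with these channels were taken as a further list. A list of 29, made of other channel subunits, pumps and cotransporters, had 25 in the region lists, with 92 and 129 regions. Of these 16 (17.4%, 11.0 to 26.4) were listed in Pemt-/- only and 52 (40.3%, 32.2 to 48.9) in Pemt+/+ only. Over all autosomal regions the shares were 16.7% and 38.3%. The 73 pairs had a median ratio of 0.664, beside 0.682 over all autosomal pairs. By the 2-fold rule 0 were high and 2 low, beside 2.13% and 1.93% of all pairs. Abcc8 and Abcc9, the regulatory subunits of ATP-sensitive channels, had 119 and 198 tags in Pemt-/- and 204 and 335 in Pemt+/+. Atp1b1, a subunit of the sodium pump, had 123 tags in Pemt-/- and 217 in Pemt+/+.

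The deposited shorter lists hold fewer regions per mouse, and the sources used here do not state how they were made. If each was made against the other mouse, a missing or weak counterpart there would follow by construction. In the shorter Pemt-/- list 7 of 2124 autosomal regions were at members (0.330%, 0.160 to 0.679). Of the 310 longer-list member regions, 2.26% (1.10 to 4.59) overlapped a shorter-list region, beside 2.12% of all. They lay in Kcnh7, Kcnh8, Kcnip4, Kcnn3, Kcnd2, Kcnh1 and Kcnab1, inside the gene in each case, and none had a counterpart in the longer list of Pemt+/+. All 7 had a false discovery rate (FDR) of 100%. The Kcnh7 region had a score of 136.66 there and a fold enrichment of 10.45, and 0.330% of the list scored higher. The Kcnh8 region, chr17:52873700-52874024, had 11 tags and a score of 92.04. The other 5 had 8 to 14 tags and scores of 54.18 to 59.23.

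In the shorter Pemt+/+ list 25 of 5965 autosomal regions were at members (0.419%, 0.284 to 0.618), in 17 genes. Of the 432 longer-list member regions, 5.79% (3.95 to 8.40) overlapped a shorter-list region, beside 4.57% of all. Their FDR ran from 21.83 to 36.36%. The highest score, 107.14, belonged to the Kcnd3 region at chr3:105371600-105371911, with 33 tags against 8 in its Pemt-/- counterpart. A region of 25 tags 250 bp downstream of Kcnk10 followed with 100.8. Kcnv2 had 2 regions upstream, with 16 and 25 tags, Kcne1 the upstream region of 35 tags, and Kcnj6 a region of 11 tags. Of the 25, 6 overlapped a Pemt-/- region, in Kcnd3, Kcne1, Kcnj5, Kcnh6, Kcnc1 and Kcnip2. Those are the pairs with the 6 lowest ratios listed above. Both lists use the same reads, and a list made against the other mouse would give this match by construction. The match is therefore no separate support.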

How the data were processed

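Methylated DNA was enriched from liver DNA of 1 Pemt-/- and 1 Pemt+/+ sample with the EpiXplore kit, and 1 library per sample was sequenced on a Genome Analyzer IIx. The submitters' processing notes name CASAVA version 1.8.2, Bowtie and the build mm9. The region names are those given by MACS. Its version, settings and control, and the handling of duplicate reads, which change tag numbers and p-values, are not given in the sources used here. The authors deposited 2 lists per mouse with 1 line per pair of region and RefSeq transcript. The tags that the authors deposited are raw read counts. The deposited fold enrichment is a ratio over the background of the caller. The deposited score is 10 times the −log10 p-value, and the deposited FDR is a percent.

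Each region was used once, with autosomes only. Regions were paired when they overlapped one to one by at least 1 bp. Genes were taken by symbol, and families and the 2 gene lists by symbol from textbook knowledge. These members and lists were chosen with earlier results of these data known. Where several transcripts gave different relations, overlap with the 5′ end was taken first. Tag shares of genes used genes with at least 20 tags. Promoter windows came from RefSeq on GRCm38.p6, the gene lengths from the same assembly. Shares have Wilson 95% intervals, which treat reads, regions and promoter windows as independent and cover counting error only. No test was made.

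Named were, in each mouse, the 5 one-mouse regions with the highest score, the 5 regions overlapping a 5′ end with the most tags, and the shorter-list regions with a score of at least 80 or, if fewer than 6, the 6 highest. Also named were the 5 pairs with the most tags, the 5 with the highest and the 5 with the lowest ratio among pairs of at least 30 tags, the 5 genes with the most regions, the liver and bile duct list and Kcnh7. Alternatives were lists cut to their upper 50% by score or to equal length, pairing that required 50% of each region to overlap, regions inside or overlapping a member only, members without auxiliary subunits, and pairs of at least 30 tags. The calculations used Python version 3.11.15, pandas version 2.3.3, numpy version 2.4.6, scipy version 1.17.1 and matplotlib version 3.10.9, and the overlap step was tested on simulated data. Values of some genes are not reported here.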

Additional observations from a re-analysis of the deposited data

How the results depend on the processing

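No paired analysis was possible because there was 1 library per genotype. Of the values recomputed under an alternative, 37 moved by less than their interval or, for counts, by less than 1.5 times, and 13 moved more. Some of the 37 could not move by construction, such as region counts and tag shares under the 50% overlap rule. The tally is therefore no measure of robustness. With the lists cut to their upper 50% by score, the member regions fell to 141 in Pemt-/- and 219 in Pemt+/+ and the shorter-list regions to 2 and 13, which follows from the construction. The share inside or overlapping a member was then 83.7% and 84.0% in place of 79.0% and 78.2%, the share listed in Pemt+/+ only 45.2%, beside 41.6% of all regions, and the share of member tags from Pemt-/- 32.5% in place of 34.3%. With lists of equal length the shares listed in 1 mouse only were 26.5% in Pemt-/- and 31.0% in Pemt+/+, the share of member tags from Pemt-/- was 37.5%, and that of Kcnh7 was 45.7% in place of 39.2%. This cut removed Pemt+/+ regions only, so the tag share of a gene could not fall. The tag share over all regions under it is not given here. With pairs of at least 30 tags the median ratio was 0.621, beside 0.636 over all such pairs. The library totals are unknown and regions below the threshold of a list have no tags, so a weak region in the other mouse cannot be told from none.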
